A study of Mus musculus with 7 samples.

Results

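Tumor cells with a high level of acute-phase and defense secretions relative to the milk gene Lalba and 3 further genes were examined in 7 mouse mammary tumors. The cells were selected on 9 transcripts. For each non-cycling tumor cell, the UMIs (counted mRNA molecules) of Slpi, Spp1, Cp, Saa1 and Chil1 plus 1 were divided by the UMIs of Lalba, Lgals7, Xbp1 and Aldoc plus 1, and the log2 of that ratio was the score. The upper tercile of the score (the highest of 3 equal parts of the cells) within each tumor gave 851 members of 2558 non-cycling tumor cells, among 15047 cells in all. The members numbered 46 to 215 per tumor. They were compared with the 851 cells in the bottom tercile and the 856 cells in the middle tercile of the same tumors.

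The data are Drop-seq matrices of 7 tumors, each labelled as from an MMTV-PyMT; HK2 f/f mouse, in which polyoma middle T antigen (PYMT) is driven in the mammary epithelium by the MMTV promoter. Both copies of Hk2, which encodes hexokinase 2, are floxed, and the labels call these mice wild type and name no Cre. The labels' treatment text describes systemic HK2 deletion by ERT2Cre and tamoxifen for the series, and by the study's methods control mice, on a C57BL/6 background, received the tamoxifen too. All 7 are control tumors, taken 3 months after a tumor could be felt, and each is 1 replicate (numbered 1, 2, 3, 4, 5, 7 and 8). Titles put replicates 1 to 4 in a CB series and 5, 7 and 8 in a WT series, whose meaning the labels do not give, and the labels give no age. Barcodes with an undetermined base (N) occurred in all 4 CB matrices, 287 to 501 in each, and in none of the WT matrices.

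The acute-phase response is the set of secreted proteins that epithelia and liver release on inflammatory cytokine signals, acting largely through the transcription factors STAT3, C/EBP and NF-kB. Its products include the serum amyloid A proteins, ceruloplasmin and lipocalin 2. In the mammary gland, several of these proteins rise when milk secretion ends and the gland involutes, whereas lactating alveolar cells make milk proteins such as alpha-lactalbumin.

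Tumor cells were barcodes with 200 to 6000 genes and under 3000 UMIs that carried at least 2 UMIs of the epithelial genes Epcam, Krt8 and Krt18, at least 1 UMI of the PYMT transgene, and no more UMIs of 5 hormone-sensing luminal genes than of PYMT. Cells with over 1 UMI of the 4 cell-cycle genes Mki67, Top2a, Birc5 and Ube2c were set apart. Members held a median of 815 to 1273.5 UMIs per cell in the 7 tumors, and cells of the bottom tercile 693 to 1231.5. Cells of the middle tercile held 682 to 940, less than members in every tumor but replicate 4, so the comparison with the middle tercile is also one with shallower cells. Summed over a tumor, members gave 48037 to 246454 UMIs and the bottom tercile 44154 to 225639. Barcodes were almost never shared between matrices. Of 15042 distinct cell barcodes, 5 occurred in over 1 matrix, and 1 member carried such a barcode.

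The members were cut from a range of scores at a tercile of each tumor, so the boundary does not mark a group of cells by itself. The lowest score of a member lay between 0.585 in replicate 3 and 3.087 in replicate 7, and in 5 of the 7 tumors the highest score outside the members was the same value, so that ties were divided by barcode order. Between 11.6 and 23.9% of the tumor cells of a matrix lay within 0.5 of that boundary. The highest score in the bottom tercile ran from -1.0 in replicates 1 and 5 to 1.322 in replicate 7. That last value was above the lowest member scores of replicates 1, 3, 5 and 8 (0.807, 0.585, 0.926 and 1.0). Members and bottom tercile are thus relative to each tumor. A member carried a median of 2 of the 5 marker transcripts, or 3 in replicate 7, and the number of members with UMIs of all 5 markers ran from 1 to 35 per tumor.

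**Figure D1:**
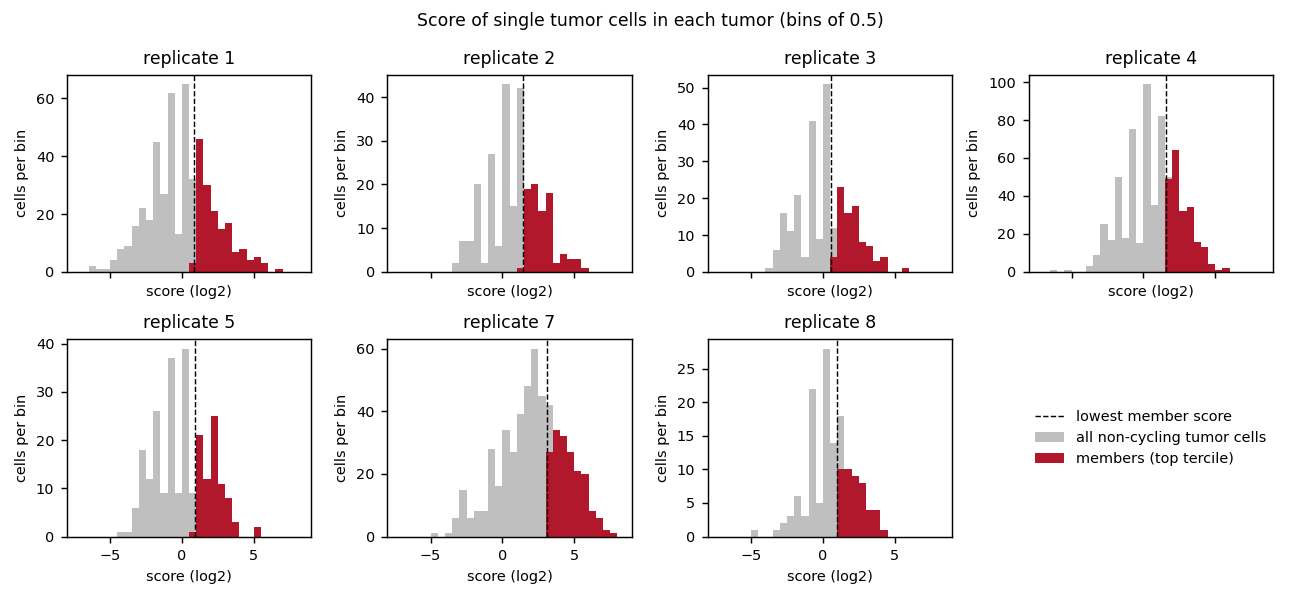
Score of each non-cycling tumor cell (x axis, log2) against the number of cells per bin of 0.5 (y axis), 1 panel per tumor, with members in red and the lowest member score dashed. The bins on both sides of the dashed line hold cells, and replicate 7 has the highest lowest member score, 3.087.

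The score genes chose the cells, so their levels are a description and were not tested. Levels are given as CPM, the UMIs of a gene per 1000000 UMIs of all genes outside the 22 used for the score and the gates. Spp1 encodes osteopontin, a secreted glycoprotein that binds integrins. It was the most abundant of the 5 markers by mean CPM and the most uneven between tumors, with a lowest level of 2541 CPM, a median of 3923 and a highest level of 34740 in members. The highest value was that of replicate 7, where Spp1 made up 68.8% of the marker UMIs and led the markers in 152 of 178 members. In the bottom tercile Spp1 ran from 0 to 1028 CPM, with a median of 69.7.

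Cp encodes ceruloplasmin, a copper-carrying ferroxidase, and was the marker found in the most members. It had a lowest level of 2430 CPM, a median of 3961 and a highest level of 9155 in members, against 276.4, 593.8 and 2289 in the bottom tercile. Replicate 7 again held the highest value in both, and within every tumor the members were the higher. Saa1 encodes serum amyloid A1, a classic acute-phase apolipoprotein. Its levels in members were 830.8 at the lowest, 2737 at the median and 4171 at the highest CPM, and in the bottom tercile 22.1, 147.3 and 278.9. Replicate 3 had the lowest Saa1 of both groups.

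Slpi encodes a secreted inhibitor of leukocyte proteases. It stood at 483.0, 934.7 and 1843 CPM (lowest, median, highest) in members and at 22.6, 44.2 and 127.7 in the bottom tercile. Chil1 encodes a chitinase-like secreted lectin. It stood at 592.0, 1297 and 2091 CPM in members and at 143.7, 285.0 and 534.5 in the bottom tercile. For each of Spp1, Cp, Saa1, Slpi and Chil1 the lowest member level lay above the highest level of the bottom tercile, which the selection of the cells brings about.

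The 4 genes of the denominator lay on the other side. Lalba, the alpha-lactalbumin that makes the lactose synthase, stood at 72.7, 242.5 and 598.5 CPM in members and at 1696, 2885 and 6945 in the bottom tercile. Xbp1, a transcription factor of the unfolded protein response and of secretory cells, averaged 382.1 ± 120.9 CPM in members and 1347 ± 362.7 in the bottom tercile (SD, n = 7). Aldoc, a fructose-bisphosphate aldolase, averaged 360.7 ± 66.7 and 1341 ± 478.2 CPM. The galectin Lgals7 averaged 186.6 ± 81.4 and 538.7 ± 206.8 CPM, and was higher in members of 1 of the 7 tumors.

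**Figure D2:**
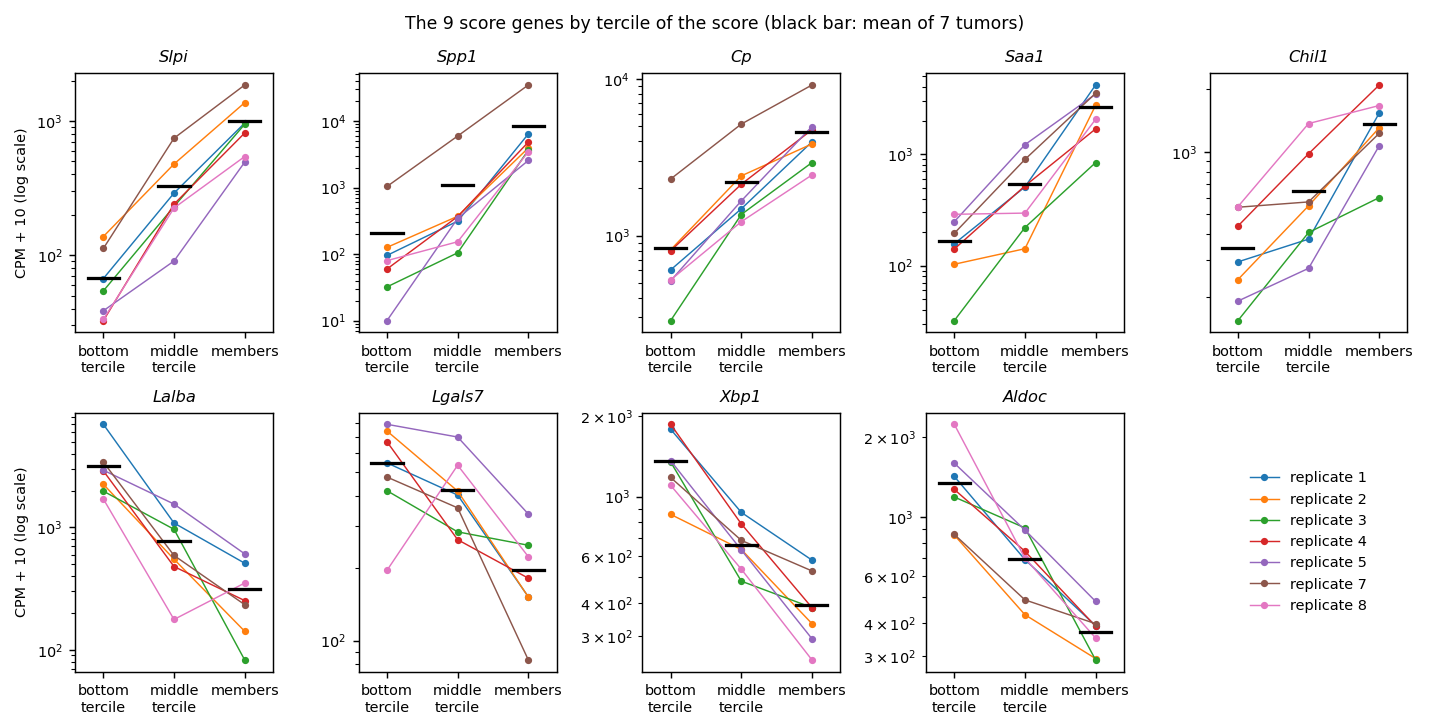
Levels of the 9 score genes (y axis, CPM + 10 on a log scale) in the bottom tercile, the middle tercile and the members (x axis), with 1 colored line per tumor and a black bar at the mean of 7 tumors. The 5 markers rise to the right by construction, and the Spp1 level of replicate 7 stands at 34740 CPM in members.

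Shares of cells with a UMI were compared after each cell had been thinned to 300 UMIs, which left out 24 members, 22 cells of the bottom tercile and 134 leukocyte-type barcodes (Ptprc present, no epithelial keratin or Epcam). At that depth 69.6% of members had a UMI of Cp, 48.6% of Spp1, 23.3% of Chil1, 22.9% of Saa1 and 19.0% of Slpi. Leukocyte-type barcodes, which should hold little of Saa1, had it in 0.8% at the same depth and in 1.0% unthinned, Cp in 2.3% and 4.4%, and Spp1 in 5.5% and 9.6%. The unthinned shares in members were 89.8% for Cp, 57.7% for Spp1, 42.5% for Chil1, 33.1% for Saa1 and 34.5% for Slpi. Median depths were 1003 UMIs in members and 538 in leukocyte-type barcodes. In the bottom tercile, the thinned shares were 20.5% for Cp, 7.8% for Chil1, 4.6% for Spp1, 3.6% for Saa1 and 1.6% for Slpi.

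By their means over the tumors, the markers were lower in the other cells, with Spp1 at 1032 ± 1380 CPM in leukocyte-type barcodes (SD, n = 7). Within single tumors there were 2 exceptions. Spp1 in replicate 3 was at 4081 CPM in leukocyte-type barcodes and 3635 in members, and Slpi in replicate 8 was at 642.7 CPM in cycling tumor cells and 533.0 in members. In hormone-sensing luminal cells, the epithelial cells with at least 2 UMIs of Fgb, Fgg, Ptn, Prlr and Cited1 and more of these than of PYMT, Saa1 averaged 61.0 ± 55.5 CPM and Cp 684.2 ± 343.6 (SD, n = 7). The 55 cycling tumor cells gave few UMIs, 7 of them of Saa1. Barcodes with under 200 genes, which contain free RNA, held Saa1 at 346.7 ± 312.1 CPM and Spp1 at 1447 ± 1518, lower than in members by ratios of means of 7.59 and 5.87. The gate genes Epcam, Krt8 and Krt18 had means in members that were 1.08, 1.01 and 1.01 times those of the bottom tercile. PYMT itself, also a gate gene, averaged 2549 CPM in members and 3918 in the bottom tercile and was lower in members of all 7 tumors. None of these gate genes was tested.

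Genes outside the score and the gates were then tested for whether they moved with it. UMIs were summed over the members and over the bottom tercile of each tumor and compared by edgeR with the tumor as a block. The cells had been chosen from the same libraries, so a difference says which other genes go with the 9 score genes. Of 1706 genes tested, 105 were higher in members (6.15%) and 68 lower (3.99%) at an adjusted p under 0.05, and the median log2 fold change over all tested genes was 0.00. Of the 105 higher genes, 50 were higher in every tumor and 98 in at least 6, and of the 68 lower genes, 51 and 67. With the middle tercile as the comparison, 25 of 1623 genes were higher (1.54%) and 3 lower (0.185%).

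Saa2, the second acute-phase serum amyloid A, rose most in members among the genes of the naming rule. Its level was 508.9 CPM at the lowest, 863.8 at the median and 2058 at the highest in members, and 0, 81.3 and 371.8 in the bottom tercile, so that no member value overlapped the other group. The log2 fold change was 3.43 (SE 0.28, edgeR adjusted p = 7.07e-09), or 10.8-fold, and 2.16 against the middle tercile (SE 0.17, edgeR adjusted p = 1.372e-10). This rise is not independent of the selection by Saa1. The longest coding transcripts of both genes in GENCODE M21 are 87.5% identical and 31.3% of the 25-base words of Saa1 occur in Saa2, so reads of one can be counted as the other. The genes lie next to each other within 13.8 kb of chromosome 7 (GRCm38), Saa1 at chr7:46740497-46742980 on the minus strand and Saa2 at chr7:46751790-46754313 on the plus strand.

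Promoter sequences from RefSeq (GRCm38.p6) are shown for Saa1, Saa2 and Lcn2, since they are acute-phase genes of members, and for Cxcl1 and Nfkbia, since they are NF-kB targets that were higher in members. Each is the 250 bases before the transcription start, 5′ to 3′ on the strand of the gene, with matches on either strand in capitals. The capitals mark TTGCNNAA (C/EBP) in the first 3 and the NF-kB consensus in the last 2. TTCNNNGAA (STAT) was searched too.
Saa1 (chr7:46742981-46743230, minus strand): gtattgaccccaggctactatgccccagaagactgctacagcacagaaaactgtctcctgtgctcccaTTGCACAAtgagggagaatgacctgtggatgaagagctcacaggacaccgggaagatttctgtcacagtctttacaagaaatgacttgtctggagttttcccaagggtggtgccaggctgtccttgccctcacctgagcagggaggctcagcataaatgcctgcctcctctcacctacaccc
Saa2 (chr7:46751583-46751832, plus strand): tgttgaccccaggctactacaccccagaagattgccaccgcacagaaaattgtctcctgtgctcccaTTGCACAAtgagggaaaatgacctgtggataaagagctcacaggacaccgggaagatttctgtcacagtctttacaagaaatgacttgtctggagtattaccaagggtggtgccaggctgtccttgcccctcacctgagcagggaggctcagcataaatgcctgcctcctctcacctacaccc
Lcn2 (chr2:32387740-32387989, minus strand): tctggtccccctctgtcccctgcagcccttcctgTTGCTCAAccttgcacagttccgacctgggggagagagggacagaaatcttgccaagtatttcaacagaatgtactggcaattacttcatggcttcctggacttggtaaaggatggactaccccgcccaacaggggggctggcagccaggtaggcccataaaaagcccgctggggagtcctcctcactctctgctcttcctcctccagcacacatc
Cxcl1 (chr5:90890995-90891244, plus strand): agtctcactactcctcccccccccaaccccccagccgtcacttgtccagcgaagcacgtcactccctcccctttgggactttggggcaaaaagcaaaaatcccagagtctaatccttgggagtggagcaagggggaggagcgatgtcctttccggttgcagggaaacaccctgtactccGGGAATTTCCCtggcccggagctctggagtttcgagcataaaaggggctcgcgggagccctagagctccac
Nfkbia (chr12:55492648-55492897, minus strand): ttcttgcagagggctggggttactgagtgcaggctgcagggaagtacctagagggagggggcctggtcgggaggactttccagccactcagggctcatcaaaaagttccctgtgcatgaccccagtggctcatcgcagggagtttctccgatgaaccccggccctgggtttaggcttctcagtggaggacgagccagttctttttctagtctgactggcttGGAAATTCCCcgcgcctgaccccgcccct

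The windows of Saa1 and Saa2 were identical at 238 of 251 aligned positions (94.8%), and both held the same C/EBP letters, 182 and 183 bases before the start. Among the 5 markers and the 8 acute-phase or defense genes that were higher in members, 12 had at least 1 window and 7 of these held the C/EBP letters (Cp, Lcn2, Ltf, Saa1, Saa2, Slpi and Spp1, of which Cp and Spp1 in the second of their windows). Genes on the other side held them too. Scgb2b27, which was lower in members, had 2 matches, and Xbp1 of the denominator had 1. The letters occur in 9.6% of all 32851 windows of 250 bases, a share per single window that is not directly comparable with a count of genes that can have more than 1. None of the 12 held the STAT letters, which 7.0% of all windows hold and of which the second window of Aldoc, a denominator gene, had 2 matches. Chil1 and Igfbp5 held the NF-kB consensus, which 3.9% of all windows hold. A match of letters is a description of the window and does not show that a factor binds there.

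Secreted acute-phase and defense proteins outside the score were mostly higher in members. Of 28 listed genes, 13 passed the filter on low counts, 8 were higher and 1 was lower, against 6.15% and 3.99% of all tested genes. The median log2 fold change was 0.71 against 0.00 over all genes tested. The 8 include Saa2, whose rise is not independent of the selection by Saa1, and Mfge8, which is also on the list of milk proteins. The list was chosen with earlier results of these data known, so its excess over all tested genes is not an independent result. Lcn2 encodes lipocalin 2, which binds bacterial siderophores. It was the most abundant of the 8 higher genes in members, at 10800 CPM at the lowest, 13330 at the median and 24690 at the highest, against 5893, 9165 and 12620 in the bottom tercile. The ranges overlapped, but Lcn2 was higher in members of 6 tumors, with a log2 fold change of 0.71 (SE 0.13, edgeR adjusted p = 0.000541).

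Ltf, the iron-binding lactoferrin, stood at 1194, 2027 and 3558 CPM in members and at 256.5, 1072 and 3610 in the bottom tercile. The groups overlapped, and the highest bottom value came from replicate 7. Its log2 fold change was 1.08 (SE 0.19, edgeR adjusted p = 0.0003653). Cd14, a co-receptor for bacterial lipopolysaccharide, rose by a log2 fold change of 1.02 (SE 0.19, edgeR adjusted p = 0.0005435) and was higher in members of every tumor. Leukocyte-type barcodes held Cd14 at 1636 ± 977.5 CPM, above the 925.4 ± 351.1 of members (SD, n = 7). Of the 8 macrophage markers, 6 had more UMIs for the depth in members, among them Lyz2 with 74 UMIs against 39 in the bottom tercile and C1qa with 48 against 20, while Adgre1 was at 0 in both. Without cells that carried a UMI of another cell type's markers, the log2 fold change of Cd14 was 1.02 and was still called, and within the WT titles alone it was 0.42 (edgeR adjusted p = 0.4971). Lcn2, Ltf and Cd14 were named after their values had been seen.

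Wfdc2, a secreted protein of the same domain family as Slpi, rose by a log2 fold change of 1.77 (SE 0.26, edgeR adjusted p = 4.361e-05), from 75.1 ± 58.8 CPM in the bottom tercile to 258.6 ± 99.0 in members (SD, n = 7). Wfdc12, a further member of that family, was at 280.5 ± 233.5 CPM against 32.8 ± 45.8 and was higher in 6 tumors. It lies with Slpi and Wfdc2 within 379.3 kb of chromosome 2 (GRCm38), and was named after its values had been seen. Igfbp5, a secreted binder of insulin-like growth factors, rose by a log2 fold change of 1.01 (SE 0.12, edgeR adjusted p = 3.959e-06), and the mucin gene Muc1 was also higher, by 0.67, a call that held in 9 of 19 alternatives.

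Pigr, the receptor that carries IgA across epithelia, went the other way. It fell by 0.97 on the log2 scale (SE 0.18, edgeR adjusted p = 0.0005435), from 281.3 ± 108.4 CPM in the bottom tercile to 131.1 ± 59.8 in members (SD, n = 7), and was lower in every tumor. Wfdc18, Trf, Lrg1 and Muc15, the other tested members of the list, had log2 fold changes between -0.08 and 0.09 and were not called. Lrg1 encodes an acute-phase glycoprotein and had a log2 fold change of 0.09 (edgeR adjusted p = 0.7447). Over the alternatives it ran from -0.06 to 0.99 and passed the threshold in 1 of 20.

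Hp encodes haptoglobin, which binds free hemoglobin, and fell under the filter on low counts in the comparison with the bottom tercile. It gave 287 UMIs in members and 18 in the bottom tercile, at 283.9 ± 187.1 and 20.2 ± 19.1 CPM (SD, n = 7), and was higher in members of every tumor. Against the middle tercile, where Hp was tested, its log2 fold change was 1.69 (SE 0.26, edgeR adjusted p = 0.0001185). Saa3, another serum amyloid A of the list, gave 50 UMIs in members and 1 in the bottom tercile and was not tested.

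**Figure D3:**
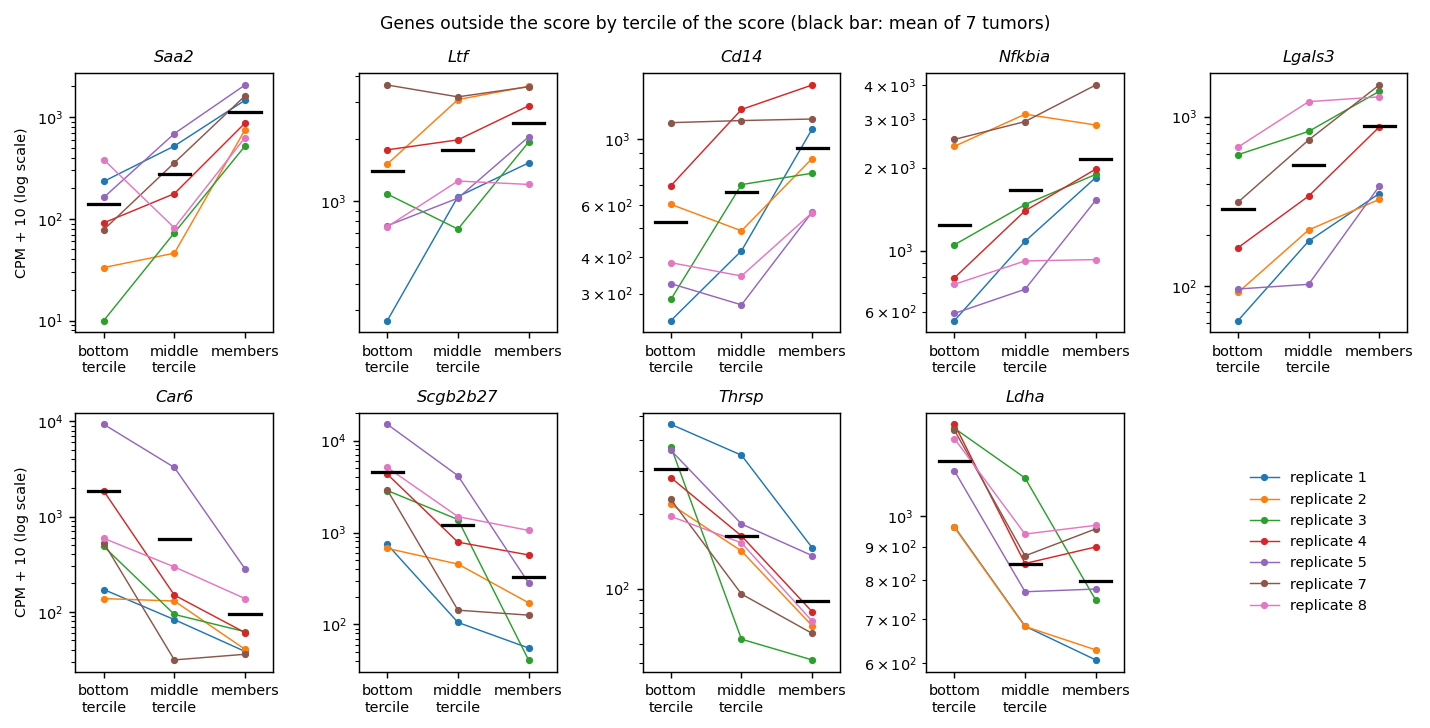
Levels of 9 genes outside the score (y axis, CPM + 10 on a log scale) in the bottom tercile, the middle tercile and the members (x axis), with 1 colored line per tumor and a black bar at the mean of 7 tumors. Saa2, Cd14, Nfkbia and Lgals3 are higher in members than in the bottom tercile of each tumor, and Car6, Scgb2b27, Thrsp and Ldha are lower.

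The regulators of the acute-phase response gave calls in both directions. Of 24 listed STAT3, C/EBP and NF-kB regulators and early targets, 12 were tested, 3 were higher and 1 was lower, against 6.15% and 3.99% of all tested genes. Nfkbia, the inhibitor of NF-kB that is itself an NF-kB target, stood at 916.7, 1880 and 3983 CPM (lowest, median, highest) in members and at 546.3, 785.5 and 2523 in the bottom tercile, with a log2 fold change of 1.02 (SE 0.15, edgeR adjusted p = 5.976e-05). It was higher in members of each tumor although the groups overlapped. Nfkbiz, an atypical inhibitor that promotes expression of Lcn2, rose by 0.98 (SE 0.17, edgeR adjusted p = 0.0002386). The neutrophil chemokine Cxcl1 rose by 1.11 (SE 0.27, edgeR adjusted p = 0.006385) and was higher in 6 tumors.

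Bcl3, a nuclear partner of NF-kB, fell by 0.92 on the log2 scale (SE 0.24, edgeR adjusted p = 0.01489). It passed the threshold in 7 of the 11 alternatives in which it was fitted. The factors Stat3, Cebpb and Cebpd had log2 fold changes of 0.37, -0.30 and -0.11, with edgeR adjusted p = 0.1657, 0.222 and 0.7161, and Socs3, a feedback inhibitor induced by STAT3, had -0.44 (edgeR adjusted p = 0.2175). None of these 4 passed the threshold.

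Immediate early genes, transcribed within minutes of a stimulus or of cell dissociation, were higher in members for 7 of the 19 tested, and 1 was lower, where 6.15% and 3.99% of all tested genes were higher and lower. Fosb rose by a log2 fold change of 1.02 (SE 0.14, edgeR adjusted p = 2.597e-05) and Fos by 0.64. Klf4 and Ier3 rose by 0.65 and 0.52, and Jun, Egr1 and Cyr61 were the other 3. Btg2, an antiproliferative gene, was lower, by a log2 fold change of -0.55. Some of these calls depended on the processing. Btg2 passed the threshold in 9 of 20 alternatives, Cyr61 in 10, and Jun and Egr1 in 12 each. Junb, Dusp1, Atf3 and Ier2 were not called, with log2 fold changes of 0.37, 0.46, 0.33 and 0.10. Their relation to tissue dissociation was not tested.

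Of 15 S100 proteins and galectins, 10 were tested. All 10 that were tested had log2 fold changes above 0, and the median was 0.44. Of these, 5 were called higher, where 6.15% of all tested genes were. Lgals3, galectin 3, stood at 314.2, 858.7 and 1529 CPM in members and at 52.3, 158.0 and 650.7 in the bottom tercile, with a log2 fold change of 2.01 (SE 0.18, edgeR adjusted p = 2.146e-08). The groups overlapped across tumors, but members were higher in each tumor. S100a6 rose by 1.30 (SE 0.18, edgeR adjusted p = 2.251e-05), from 673.6 ± 364.0 to 1537 ± 699.9 CPM (SD, n = 7). S100a8, S100a11 and S100a10 were the other 3, of which S100a11 passed the threshold in 13 of 20 alternatives and S100a10 in 9. S100a8, also a neutrophil gene, was at 306.8 ± 203.7 CPM in members while its partner S100a9 gave 6 UMIs in them.

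Further secreted and surface proteins were among the 15 genes with the largest rises under the naming rule. Npy, neuropeptide Y, had a log2 fold change of 2.14 (SE 0.24, edgeR adjusted p = 1.136e-06) and ran from 52.5 to 1417 CPM in members, with a median of 249.2, and from 9.52 to 375.1 in the bottom tercile, with a median of 61.8. Replicate 7 held the highest Npy in both groups. Mfge8, the milk fat globule protein that tags dying cells for uptake, rose by 1.68 (SE 0.13, edgeR adjusted p = 6.659e-09), and Gas6, a bridging ligand of the TAM receptors with a like function, by 1.42 (SE 0.21, edgeR adjusted p = 4.361e-05). Clu, the extracellular chaperone clusterin, rose by 1.35 (SE 0.15, edgeR adjusted p = 7.738e-07). All 4 were higher in members of every tumor.

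The metalloproteinase inhibitor Timp3 rose by 1.81, the secreted Igfbp7 by 1.53, the receptor partner Ramp1 by 1.47, the annexin Anxa3 by 1.33 and the asparaginase-like Asrgl1 by 1.31. C530043A13Rik and 1810011O10Rik, with log2 fold changes of 1.74 and 1.30, completed the 15. Annexins, which bind membranes with calcium, and lysosomal cathepsins were looked at after these values had been seen. Of the annexins, 4 of 6 tested were higher (Anxa1, Anxa2, Anxa3 and Anxa5), of which Anxa5 passed the threshold in 12 of 19 alternatives. Of 7 tested cathepsins and cystatins, Ctsd, Ctsl and Cst3 were higher, with log2 fold changes of 0.85, 0.65 and 1.23. Over all tested genes, 6.15% were higher. Cst3 averaged 2139 CPM in members and 4155 ± 1719 in leukocyte-type barcodes (SD, n = 7). Its log2 ratio was 0.10 in replicate 7 and 0.07 in replicate 8, its log2 fold change was 0.38 and not called within the WT titles, and it was 1.42 without cells that carried markers of other types.

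**Figure D4:**
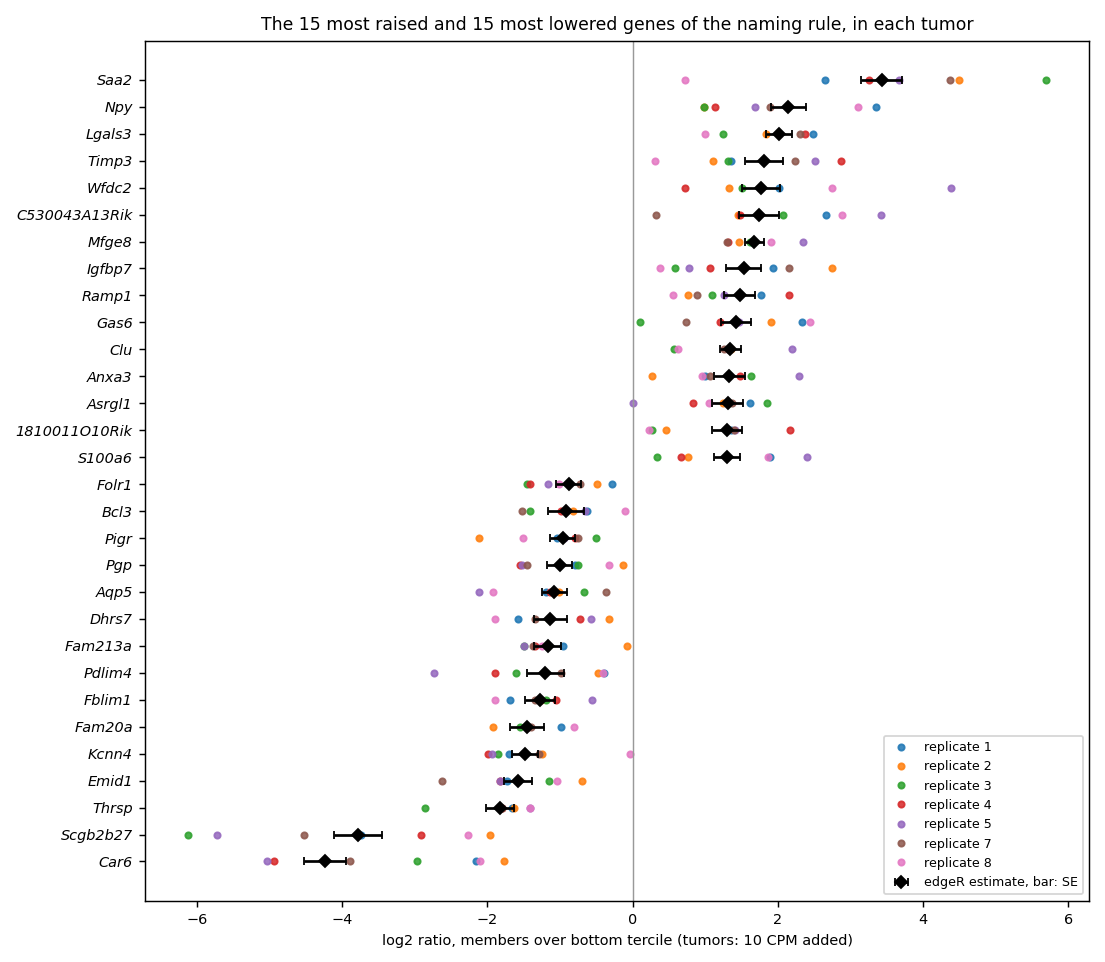
Log2 ratio of members over the bottom tercile (x axis, 10 CPM added for the single tumors) for the 30 genes of the naming rule (y axis), with 1 colored point per tumor and a black diamond with its SE for the edgeR estimate. By the rule, all points of the 15 raised genes lie at or above 0 and all points of the 15 lowered genes lie under 0. Saa2 at 3.43 and Car6 at -4.23 stand at the ends.

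Among the lowered genes, secretory products of another kind stood first. Car6, a secreted carbonic anhydrase found in saliva and milk, was at 25.8, 50.5 and 273.0 CPM (lowest, median, highest) in members and at 127.7, 521.2 and 9292 in the bottom tercile. Replicate 5 had the highest level in both, and Car6 was lower in members of every tumor, with a log2 fold change of -4.23 (SE 0.29, edgeR adjusted p = 5.699e-10). Scgb2b27, a secretoglobin of the androgen-binding protein family, was at 31.2, 162.2 and 1045 CPM in members and at 661.9, 2893 and 15020 in the bottom tercile, with a log2 fold change of -3.78 (SE 0.33, edgeR adjusted p = 1.763e-08). It was also lower than in the middle tercile, by a log2 fold change of -1.66 (SE 0.33, edgeR adjusted p = 0.002503). Scgb2b27 belongs to a family of near-identical copies, between which reads can be split, so its level is uncertain.

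Thrsp, which promotes fatty acid synthesis in the lactating gland, was at 41.5, 64.0 and 136.4 CPM in members and at 185.9, 270.9 and 451.3 in the bottom tercile, with no overlap. It fell by 1.83 on the log2 scale (SE 0.19, edgeR adjusted p = 3.454e-07). The water channel Aqp5 fell by 1.08 and the potassium channel Kcnn4 by 1.48, and Fam20a, which takes part in phosphorylation of secreted proteins, fell by 1.45. The matrix protein gene Emid1 was lower by a log2 fold change of -1.58, the folate receptor Folr1 by -0.88, the adaptor genes Fblim1 and Pdlim4 by -1.28 and -1.20, and Dhrs7, Fam213a and Pgp by -1.13, -1.17 and -1.01. With Bcl3 and Pigr, these make the 15.

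Few milk genes other than Lalba passed the filter on low counts. Of 12 milk proteins, 4 were tested and 1 was called, namely Mfge8, which was higher. Over all tested genes, 6.15% were higher and 3.99% lower. Csn3, the kappa-casein, had a log2 fold change of 0.15 (edgeR adjusted p = 0.5123). Over the alternatives Csn3 ran from 0.085 to 0.61 and passed the threshold in 1 of 20. Csn1s1 had a log2 fold change of -1.01 (edgeR adjusted p = 0.1963). Replicate 3 decided the value of Csn1s1, with 1859 CPM in members and 663.3 in the bottom tercile. Without that tumor the log2 fold change of Csn1s1 was -2.01 and passed the threshold, as it also did with no filter on low counts. Wap, whey acidic protein, fell under the filter with 32 UMIs in members and 196 in the bottom tercile, and Csn2 with 28 and 121. All Csn2 UMIs of members came from replicate 2, the bottom tercile held Csn2 in replicates 2 and 4, and 5 tumors had none in either. Of 21 genes of milk fat synthesis and lipid droplets, 5 were tested, and Thrsp was the 1 called. Scd1, Scd2, Srebf1 and Plin2 had log2 fold changes from -0.26 to 0.27.

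Of 19 identity genes of the alveolar and luminal lineage, 12 were tested, 2 were higher and none was lower. The shares over all tested genes were 6.15% and 3.99%. Kit, a receptor of luminal progenitors, and Nfib, a factor of the lactating gland, were the 2 higher genes, by 1.05 and 0.50. Elf5, Ehf, Gata3 and Sox10 were not called, with log2 fold changes of 0.27, 0.14, 0.16 and -0.17. Both tested keratins, Krt7 and Krt19, were higher, by 0.82 and 0.92, although Krt7 was higher in members of 5 tumors only. None of the 8 tested cell junction genes was called. The endoplasmic reticulum genes are related to Xbp1, which was used in the score. Of them, 14 of the 15 tested chaperone and unfolded protein response genes were not called, Hspa5 among them at 0.13, and Sec61b, a subunit of the translocon, was lower by a log2 fold change of -0.57.

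Glycolysis genes gave calls in 1 direction. Of 18 listed, 9 were tested, 3 were lower and none higher, with a median log2 fold change of -0.17. The shares over all tested genes were 3.99% lower and 6.15% higher. Ldha, lactate dehydrogenase A, was at 596.7, 766.5 and 959.3 CPM in members and at 952.2, 1301 and 1368 in the bottom tercile and was lower in members of every tumor. Its log2 fold change was -0.56 (SE 0.11, edgeR adjusted p = 0.001412). Aldoa and Eno1 were lower by -0.49 and -0.56. These 2 calls depended on the processing. Aldoa passed the threshold in 10 of 20 alternatives and Eno1 in 7 of 19, against 17 of 20 for Ldha. The log2 fold change of Ldha was -0.15 and not called when the share of marker UMIs alone ranked the cells. By that ranking, which leaves out all 4 denominator genes, Aldoa, a paralog of Aldoc, was no longer lower, at 0.07. The cause of these shifts of Ldha and Aldoa was not tested. Gapdh, Tpi1 and Pkm had log2 fold changes of 0.00, -0.11 and -0.17.

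Hk2 and Hk1, the hexokinases, fell under the filter on low counts and were not tested here. Hk2 gave 26 UMIs in members and 45 in the bottom tercile, at 34.6 ± 34.3 and 49.4 ± 23.6 CPM (SD, n = 7), and was lower in members of 5 tumors. Gsk3b, the kinase that the study links to HK2, had a log2 fold change of -0.21 (edgeR adjusted p = 0.5646), and Snai1, which encodes SNAIL, gave 11 and 20 UMIs. Of 13 genes of proteins examined in the study, 3 were tested and none was called, where 6.15% of all tested genes were higher and 3.99% lower. Of the SNAIL targets the study names, Cdh1 was tested and was not called, at 0.36 (edgeR adjusted p = 0.2718). Cldn1, Dsp, Vim, Mmp2, Sparc and Tagln fell under the filter, with 5 to 136 UMIs in members.

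Respiratory chain genes encoded in the nucleus were looked at after the values had been seen. Of 68 tested, 9 were lower and none higher, 63 had log2 fold changes under 0, and the median was -0.28. Over all tested genes, 3.99% were lower, 6.15% were higher and the median was 0.00. Cox6a1, a subunit of cytochrome oxidase, fell by 0.53 on the log2 scale (SE 0.11, edgeR adjusted p = 0.002327). The 81 tested cytosolic ribosomal protein genes had a median of -0.04, and 1 of them, Rps27l, was called, as lower.

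The other lists were small, and 6.15% of all tested genes were higher and 3.99% lower. Of 3 tested hypoxia targets, Ndrg1 was higher and Car12 lower, by log2 fold changes of 1.02 and -0.95. The metallothioneins Mt1 and Mt2, which bind zinc and copper and are similar in sequence, were lower by -0.83 and -0.74, and the other 8 tested antioxidant and NRF2 target genes were not called. None of the 10 tested MHC class I and interferon genes and neither of the 2 MHC class II genes was called, with medians of 0.11 and 0.61.

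**Figure D5:**
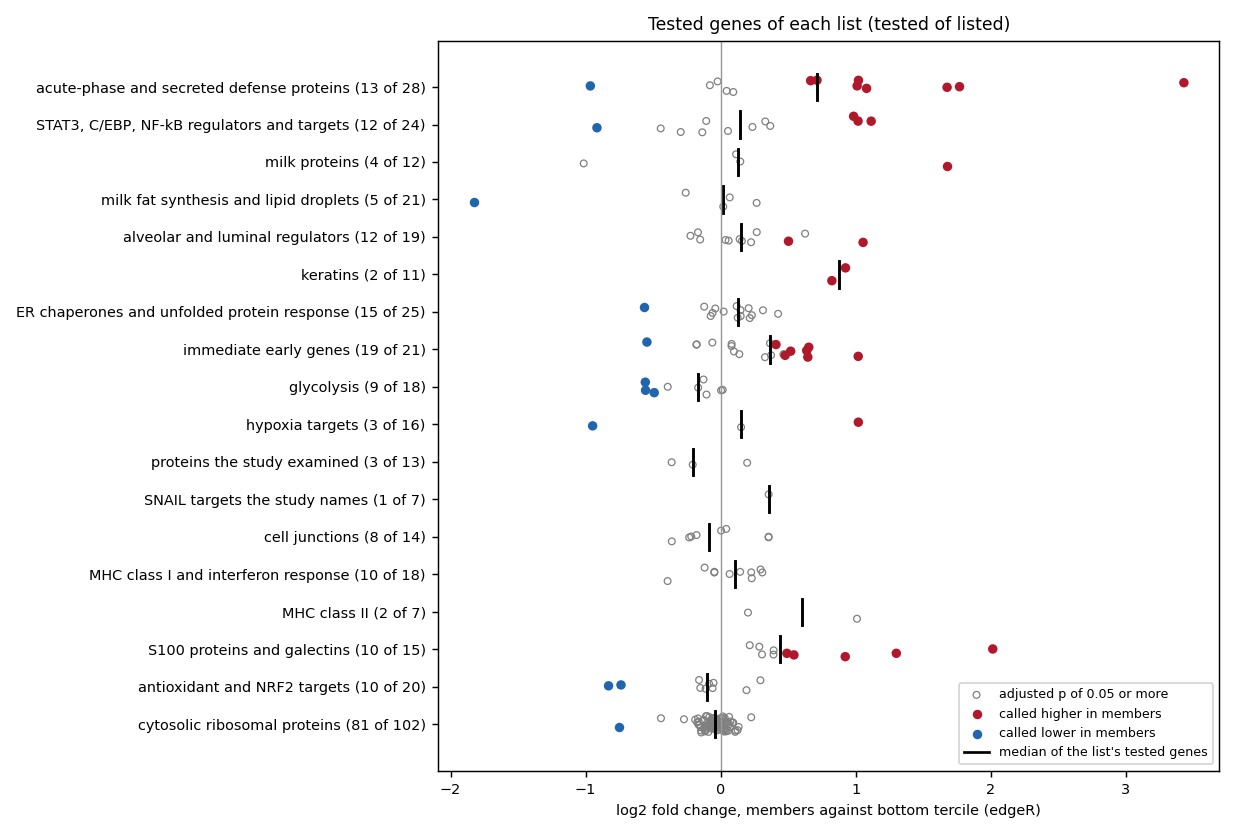
Log2 fold change of members against the bottom tercile by edgeR (x axis) for each tested gene of the 18 lists (y axis, with the number tested of the number listed), where filled points are called and black bars are list medians. The acute-phase and S100 lists have medians of 0.71 and 0.44, and glycolysis has -0.17.

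At equal depth, members held slightly fewer different genes. With the score and gate genes removed and each cell thinned to 300 UMIs, the median number of genes averaged 239.5 ± 5.45 in members and 242.5 ± 4.23 in the bottom tercile (SD, n = 7). The difference of -3.00 (SD 2.90) gave p = 0.046875 when the signs of the 7 differences were permuted (exact, two-sided), whose smallest possible p with 7 tumors is 0.0156, and members were the higher in 1 of 7. Leaving out any tumor but replicate 5 took p to 0.0625 or above. Thinned to 500 UMIs, the difference was -6.29 (p = 0.015625 by the same exact test), and members were the higher in 0 of 7.

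The CB and WT titles, whose matrices also differ in barcodes with N, were compared by an interaction term. Of 1706 genes, 0 (0.0%) differed between the series in their change from bottom tercile to members by edgeR at an adjusted p under 0.05, while 79 had an unadjusted p under 0.05 and DESeq2 called 0. In simulated data, among genes past the filter on low counts, this test called 17 of 59 whose change differed by log2 1 between the series, so most such differences were missed. It called 47 of 50 that differed by log2 2. Among the 30 genes of the naming rule, the signs within CB and within WT titles were the same for every gene. The largest gap between the series was that of C530043A13Rik, with log2 fold changes of 2.15 and 1.10 and an interaction adjusted p = 0.9758 by edgeR.

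Among the markers of other cell types, those of myoepithelial cells were higher in members of every tumor. The 7 myoepithelial markers summed to 94.5, 249.2 and 559.8 CPM (lowest, median, highest) in members and to 9.52, 58.1 and 110.6 in the bottom tercile. Of the 7 genes, 6 had more UMIs for the depth in members. Krt14, a basal keratin, made up 233 of their 282 UMIs in members, while Krt5 gave 2, Oxtr 2 and Mylk 4. A UMI of Krt14 was found in 12.7% of members and 2.8% of the bottom tercile. The part of such cells in the results was addressed by leaving out each tumor cell with a UMI of any of 61 markers of myoepithelial cells, leukocytes other than neutrophils, fibroblasts, endothelial cells or pericytes (38.9% of members and 29.0% of the bottom tercile had 1). The terciles of the remaining cells gave 84 higher and 43 lower of 1240 tested genes. Of the 127, 108 were among the genes called before, all with the same sign.

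Fibroblast markers ran from 11.4 to 2857 CPM in members, with a median of 121.2, and from 9.52 to 325.3 in the bottom tercile, higher in 5 tumors, with Pdgfra at 0. Macrophage markers ran from 31.2 to 469.0 CPM in members and from 22.1 to 233.8 in the bottom tercile, higher in 5 tumors, against 2075 to 19800 in leukocyte-type barcodes, with Adgre1 at 0 in members. Hemoglobin and other erythroid transcripts ran from 52.5 to 16520 CPM in members and from 0 to 8737 in the bottom tercile, higher in 5 tumors, and Hbb-bs was called higher against the middle tercile (log2 fold change 1.62, SE 0.22, edgeR adjusted p = 2.277e-05) but not against the bottom tercile. The lists for neutrophils, monocytes and dendritic cells, T and NK cells, B and plasma cells, all leukocytes, endothelial cells, pericytes and hormone-sensing cells were higher in members of 3 to 5 tumors, with medians of 5.05 to 283.8 CPM, and 1 of their genes, S100a8, was called. The 8 tumor and alveolar epithelial markers summed to a median of 67190 CPM in members and 68460 in the bottom tercile. The sum was higher in members of 5 tumors, with means of 73540 and 68520 CPM. This list holds the gate genes PYMT, Epcam, Krt8 and Krt18, and the hormone-sensing list holds the gate genes Fgb, Fgg, Ptn, Prlr and Cited1. The sums of these 2 lists were therefore set in part by the selection of the cells.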

How the data were processed

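Drop-seq gave the mRNA of single cells from 7 control tumors. By their methods, the authors mapped reads to mm10 extended by PyMT. They deposited raw UMI counts, 1 matrix per tumor. The submitters' processing notes name STAR, FastQC, hg19 and GRCh37.p13, which is a human build, while the matrices hold mouse symbols. Counting program and annotation are not given in the sources used here. Mitochondrial genes, present in 2 matrices, were dropped. Doublets were limited only by the bounds on genes and UMIs.

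The members and the gene lists were chosen with earlier results of these data known. UMIs were summed per tumor and tercile and tested with edgeR 4.0.16 in R 4.3.3 (quasi-likelihood test after filterByExpr, TMM factors, Benjamini-Hochberg adjustment over all genes tested, threshold 0.05). The tumor was a block, since both sums come from the same animal. In simulated data with changes of log2 1, the comparison with the bottom tercile called 61 of 61 changed genes and 8 of 1604 unchanged ones. Only genes that passed the filter on low counts are in these numbers, and changed genes under it were lost. All simulations, also that for the title series, gave every gene the same spread and the same change in each tumor it was set for. Genes that vary more between tumors can be missed. Cd74 varied in sign, higher in members of 3 tumors and lower in 4, and was not called at a log2 fold change of 1.01 (SE 0.50, edgeR adjusted p = 0.2419). Named genes had an adjusted p under 0.05, the same sign in all 7 tumors and a mean of at least 50 CPM, the 15 largest and 15 smallest changes, and up to 4 called genes per list with the smallest p. Others are said to be chosen after their values were seen, or complete the calls of a list. Alternatives were DESeq2 1.42.0, RLE factors, no filter, no block, each title series or replicate left out, other limits on genes, PYMT and score, and cells thinned to 300 UMIs. Python 3.11.15 was used. The SD of a level measures its spread between 7 tumors. The p-values rest on how the difference within a tumor varies between the 7, since the tumor was a block. Depth limits genes with few UMIs. Intervals were not computed, and an absent call does not show equality.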

Additional observations from a re-analysis of the deposited data

Results flagged for a closer look

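The Spp1 level in members was 34740 CPM in replicate 7, against 2541 to 6376 in the other 6 tumors. The Cp level in members was 9155 CPM in replicate 7, against 2430 to 4967 in the others. Both are score genes, and both stand apart from the other tumors by the gap of the extreme sample over the range of the group.

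By the same measure, 3 genes had a tumor apart in the log2 ratio of members to the bottom tercile (10 CPM added). Thrsp was at -2.86 in replicate 3 and between -1.80 and -1.41 in the others. Fam213a was at -0.08 in replicate 2 and between -1.49 and -0.96 in the others. Kcnn4 was at -0.03 in replicate 8 and between -1.99 and -1.25 in the others. In all, 40 groups of values were examined and 5 stood apart, where chance gives about 1 in 20.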

How the results depend on the processing

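Limits apply to the counts of called genes, since the terciles are set by rank and hold ties. Without a replicate block, edgeR called 12 genes higher and 13 lower against the bottom tercile and 0 and 0 against the middle tercile. DESeq2 called 73 and 30, and 13 and 0, in the same order. Leaving out 1 replicate gave 79 to 132 higher and 44 to 83 lower genes against the bottom tercile, with the fewest lower genes, 44, without replicate 1 and without replicate 5. It gave 9 to 41 higher and 2 to 9 lower against the middle tercile, where the higher genes were 9 without replicate 1, 16 without replicate 3 and 41 without replicate 8. WT titles alone gave 30 higher and 15 lower against the bottom tercile and 9 higher against the middle tercile. With no filter, 9 genes were lower than in the middle tercile and 11 differed between title series. Leaving out cells with markers of other types, an alternative chosen after seeing the data, gave 43 lower. Thinning to 300 UMIs gave 28 and 10 among 334 tested genes, at least 2 PYMT UMIs gave 37 lower, and marker share as the score gave 42 lower. By marker share the log2 fold change of Aldoa was 0.071. The cause of these shifts was not tested, other than fewer genes tested after thinning.

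The difference in genes at equal depth ran from -3.75 to -2.17 without 1 replicate, with p from 0.03125 to 0.09375 (exact). At 500 UMIs it was -6.29 (p = 0.015625, exact), a depth that left out 169 members and 154 cells of the bottom tercile. Of the 30 genes of the naming rule, all that could be fitted stayed past the threshold without any 1 replicate, 18 did so without the replicate block, 20 with WT titles alone, 29 with DESeq2 and 19 of 26 with marker share as the score, and none reversed under any alternative run. At least 1 of these genes was under the filter in 10 of the alternatives. Of 88 genes followed singly against the bottom tercile, 58 lost their call without the replicate block.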

Other observations

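Further genes were higher in members than in the middle tercile, where fewer differences were found. Sparcl1, a secreted matrix protein, had a log2 fold change of 1.24 (SE 0.17, edgeR adjusted p = 2.277e-05) and was higher in members of 6 tumors. Smoc1, a matrix protein that binds calcium, had a log2 fold change of 0.87 (edgeR adjusted p = 0.04334) and was also higher in 6. Both were also called against the bottom tercile. Of the 28 genes called against the middle tercile, only Hbb-bs and Hp were not called against the bottom tercile, and Hp was not tested there. These genes were chosen after their values had been seen.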
